A study of Arabidopsis thaliana with 24 samples.

Results

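Seedlings of the Arabidopsis thaliana mutant bdg-8 were compared with seedlings of the wild type Col-0, both after a mock treatment without ATP. Polyadenylated RNA was sequenced in 3 libraries of each genotype, so the comparison rests on 6 of the 24 libraries of the study, chosen by their labelled genotype and treatment. Both genotypes carry an intact P2K1 gene, which encodes the receptor of extracellular ATP. The other libraries came from Col-0 and bdg-8 given 150 µM ATP for 30 min, and from p2k1-3, a mutant of the receptor, and a double mutant carrying both p2k1-3 and bdg-8, each with and without ATP, again with 3 libraries per group. The labels give whole seedlings as the tissue. They give neither the age of the plants nor the kind of lesion in bdg-8, and nothing in them says that the replicates came from separate cultures. P-values therefore measure the spread between these libraries, which may be technical.

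BODYGUARD1 (BDG1) encodes a hydrolase of the alpha/beta fold made by epidermal cells and found in their outer wall. It is needed for an intact cuticle, the layer of cutin polyester and wax that seals the shoot against water loss and is also the first surface that microbes meet. Plants without BDG1 have a leaky, disordered cuticle, show fusions between organs and are known to have altered resistance to fungi. A comparison without ATP shows how the transcriptome of such seedlings differs before the extracellular signal is given.

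Each of the 6 libraries held 26453444 to 31419622 counts in genes, and 20995 genes passed the filter on low counts. On the first principal component, which carried 61% of the variance, the Col-0 libraries lay between -27.13 and -26.66 while bdg-8 replicates 1, 2 and 3 lay at 35.37, 18.47 and 26.72. The first bdg-8 library therefore stood farthest from Col-0. It also had the lowest share of chloroplast-encoded counts, 0.0428%, where the 6 libraries reached up to 0.102%. Each replicate was also fitted as a mixture of the other 2, by 1 weight per group over genes with at least 150 counts in the group. In all 8 groups of the study, replicate 3 lay between replicates 1 and 2 in this fit. The weight of replicate 1 was 0.375 to 0.5, and the median variance left over genes was 1.21 to 1.66 times counting noise. Single genes could lie outside, as PBS3 did in bdg-8 without ATP. Neither replicate 1 nor replicate 2 lay between the others in this fit in any group. The share of chloroplast-encoded counts did not follow the mixture in every group. In bdg-8 without ATP it was 0.101% in replicate 3, above the 0.0428% and 0.0931% of replicates 1 and 2. In Col-0 without ATP it was 0.102%, above 0.0913% and 0.0929%. In p2k1-3 without ATP it lay between the others, at 0.0922% beside 0.0908% and 0.0949%. The origin of replicate 3 was not tested. It may not be independent, and counts of genes called are also given without it. The SE and p-values of single genes include it unless stated, and may then be too small. Of the genes chosen for naming, 254 were called with it and 164 without it.

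BDG1 (AT1G64670) itself was lower in bdg-8 without ATP. Its level was 24.8, 25.6 and 25.6 CPM (counts of the gene scaled to equal library size) in the Col-0 libraries and 16.1, 12.7 and 13.7 CPM in the bdg-8 libraries. Every bdg-8 library lay below every Col-0 library, and reads of the gene were present in all of them. The log2 difference was -0.84 ± 0.08 (SE, n = 3 per group, edgeR adjusted p = 2.4e-08). Without replicate 3 of any group it was -0.81 (edgeR adjusted p = 0.0013). In the p2k1-3 background BDG1 was also lower, at 15.3 ± 0.471 CPM (SD, n = 3) in the double mutant and 23.3 ± 1.22 CPM in p2k1-3, an edgeR log2 difference of -0.60 ± 0.08. With ATP the order was the other way, since bdg-8 reached 107 ± 9.87 CPM and Col-0 26.0 ± 1.76 CPM. The labels do not place the bdg-8 lesion within the gene, so counts over the whole gene do not show how much intact transcript remained. No other member of the BODYGUARD family was identified by name in the gene table used.

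P2K1 (AT5G60300), the ATP receptor gene, was not called. Its levels were 20.9, 21.0 and 22.4 CPM in Col-0 and 25, 21.3 and 24.3 CPM in bdg-8, which overlapped. The log2 difference was 0.14 ± 0.06 with an edgeR adjusted p = 0.096. Among the 12 clade I lectin receptor kinases and apyrases tested, 3 were lower and 1 was higher in bdg-8, a called share of 33.3% beside 36.5% of all genes; without replicate 3, 1 was lower and none higher. P2K2 (AT3G45430), a related receptor kinase that also binds ATP, fell from 3.73, 4.66 and 3.79 CPM to 1.97, 2.36 and 2.26 CPM, a log2 difference of -0.88 ± 0.15 (edgeR adjusted p = 6.4e-05).

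The differences between bdg-8 and Col-0 were many and mostly small. Without ATP, 7662 of the 20995 genes tested (36.5%) passed an adjusted p under 0.05 in edgeR and are called different. Of these, 3778 (18.0%) were higher and 3884 (18.5%) were lower in bdg-8. Counts of called list members given below are to be read beside these shares. The median log2 difference was 0.29 among the genes that rose and -0.33 among those that fell. At least 2-fold different were 520 genes (2.48%), 272 higher and 248 lower, and 3088 of the higher and 3100 of the lower genes differed by less than 1.5-fold. The levels of the groups did not overlap for 9944 of all genes tested (47.4%). Without replicate 3 of any group, 3170 genes (15.1%) were called, 1374 higher (6.54%) and 1796 lower (8.55%). Of the 7662 genes, 3146 (41.1%) kept their call and none was called the opposite way. Without the first bdg-8 library 5820 genes (27.5%) were called, 2949 higher (14.0%) and 2871 lower (13.6%). In whole seedlings, fewer cells of a type and less RNA per cell cannot be told apart in any of these differences.

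**Figure D1:**
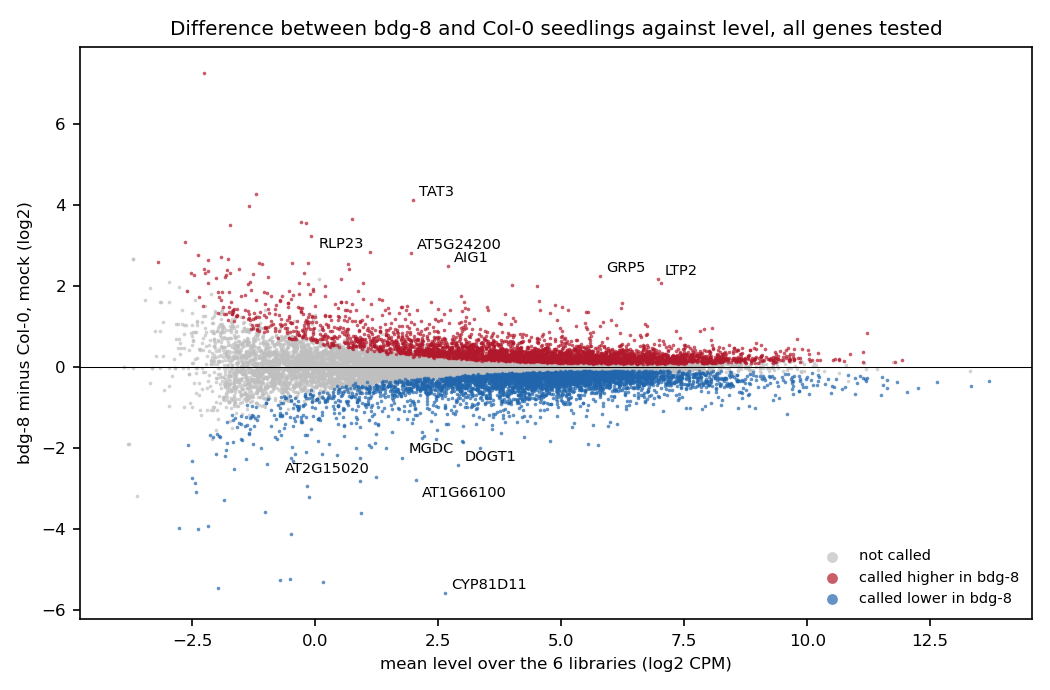
Log2 difference between bdg-8 and Col-0 without ATP (vertical axis) against the mean log2 CPM over the 6 libraries (horizontal axis), 1 point per gene tested. Red points are the 3778 genes called higher and blue points the 3884 called lower, and named points are the largest changes among genes averaging 1 or more on that axis; most called genes lie close to 0, and CYP81D11 and TAT3 lie farthest from it among the named genes.

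Among genes whose log2 CPM averaged 1 or more, the largest rises joined defence, lipid transfer and carbohydrate genes. TAT3 (AT2G24850), a tyrosine aminotransferase induced by jasmonate, had 0.977, 1.07 and 0.721 CPM in Col-0 and 18.8, 13.8 and 15.8 CPM in bdg-8. The groups were far apart, with a log2 difference of 4.14 ± 0.44 (edgeR adjusted p = 2.1e-07). RLP23 (AT2G32680), a receptor-like protein that recognises a microbial peptide, rose from 0.768, 0.814 and 0.815 CPM to 8.10, 3.20 and 5.99 CPM. AIG1 (AT1G33960), a GTP-binding protein gene known to respond to bacterial attack, rose from 2.72 ± 0.452 to 15.3 ± 1.98 CPM (SD, n = 3 each). The bdg-8 libraries varied more for RLP23 than for AIG1. Absence of overlap with Col-0 was a condition for the choice of the largest rises and falls. The log2 differences of RLP23 and AIG1 were 2.85 ± 0.35 and 2.49 ± 0.35.

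GRP5 (AT3G20470), a glycine-rich protein, stood at 32.5, 22 and 22.5 CPM in Col-0 and 106, 136 and 125 CPM in bdg-8. LTP2 (AT2G38530), a lipid transfer protein of the cuticle and epidermal wall, stood at 62.5, 54.8 and 59.6 CPM in Col-0 and 250, 274 and 280 CPM in bdg-8. Both differences were about as large again in the p2k1-3 background, with log2 differences of 2.26 ± 0.12 and 2.05 ± 0.12 for GRP5 and of 2.18 ± 0.10 and 2.02 ± 0.10 for LTP2 in Col-0 and p2k1-3 backgrounds. GPT2 (AT1G61800), the plastid importer of glucose 6-phosphate, rose from 66.5, 60.5 and 61.9 CPM to 308, 234 and 265 CPM. BAM5 (AT4G15210), a beta-amylase, rose by 1.76 ± 0.20 and SUS4 (AT3G43190), a sucrose synthase, by 1.64 ± 0.32 on the log2 scale. SUS4 was uneven within bdg-8, at 63.7, 24 and 41.9 CPM, above the 11.3 to 15.4 CPM of Col-0. The other 7 rises of this set lay between 1.61 and 2.82 on the log2 scale. They were CML41, a calmodulin-like gene, TH8, a thioredoxin, MYB75, an activator of anthocyanin genes, DIR5, a dirigent protein, AT3G25150, AT1G43910, and AT5G24200, which encodes a protein of the alpha/beta hydrolase superfamily.

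The largest fall was that of CYP81D11 (AT3G28740), a cytochrome P450 gene known to be induced by foreign chemicals. It had 28.2, 60.5 and 45.4 CPM in the Col-0 libraries and 0.387, 1.36 and 1.08 CPM in the bdg-8 libraries. The Col-0 libraries were spread widely, yet all lay far above bdg-8, and the log2 difference was -5.58 ± 0.30 (edgeR adjusted p = 1.4e-11). DOGT1 (AT2G36800), a glucosyltransferase of toxins and brassinosteroids, fell from 11.7, 24 and 17.1 CPM to 3.13, 3.54 and 3.13 CPM. ChlAKR (AT2G37770), a plastid aldo-keto reductase that removes reactive carbonyls, fell from 15.9, 24.4 and 20.9 CPM to 5.81, 4.17 and 5.39 CPM. As for CYP81D11, Col-0 replicate 2 was highest and replicate 1 lowest among the Col-0 libraries for both genes.

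Other large falls were those of MGD3 (AT2G11810), a galactolipid synthase used when phosphate is short, with a log2 difference of -2.23 ± 0.27, and FBA5 (AT4G26530), a fructose-bisphosphate aldolase, with -1.91 ± 0.28. IAGLU (AT4G15550), which attaches glucose to auxin, fell from 48.4, 51.3 and 52.8 CPM to 15, 13.7 and 14.7 CPM. The thionin gene AT1G66100 fell from 8.90, 13.6 and 11.3 CPM to 0.710, 2.19 and 2.02 CPM. The libraries of each genotype lay close together for IAGLU, and the first bdg-8 library was lowest for AT1G66100. The other 8 of the 15 largest falls were the iron-uptake genes FRO2 and IRT1, described below with their pathway, and AT2G15020, AT3G20395, AT1G73120, AT4G01870, AT1G22890 and AT5G48490, with log2 differences from -2.72 to -1.83. All 15 largest rises and all 15 largest falls kept their calls without replicate 3 and without the first bdg-8 library. Those fits reuse libraries by which the genes were chosen. In the p2k1-3 background, which shares no library with this comparison, 10 of the 15 rises and all 15 falls were called the same way.

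**Figure D2:**
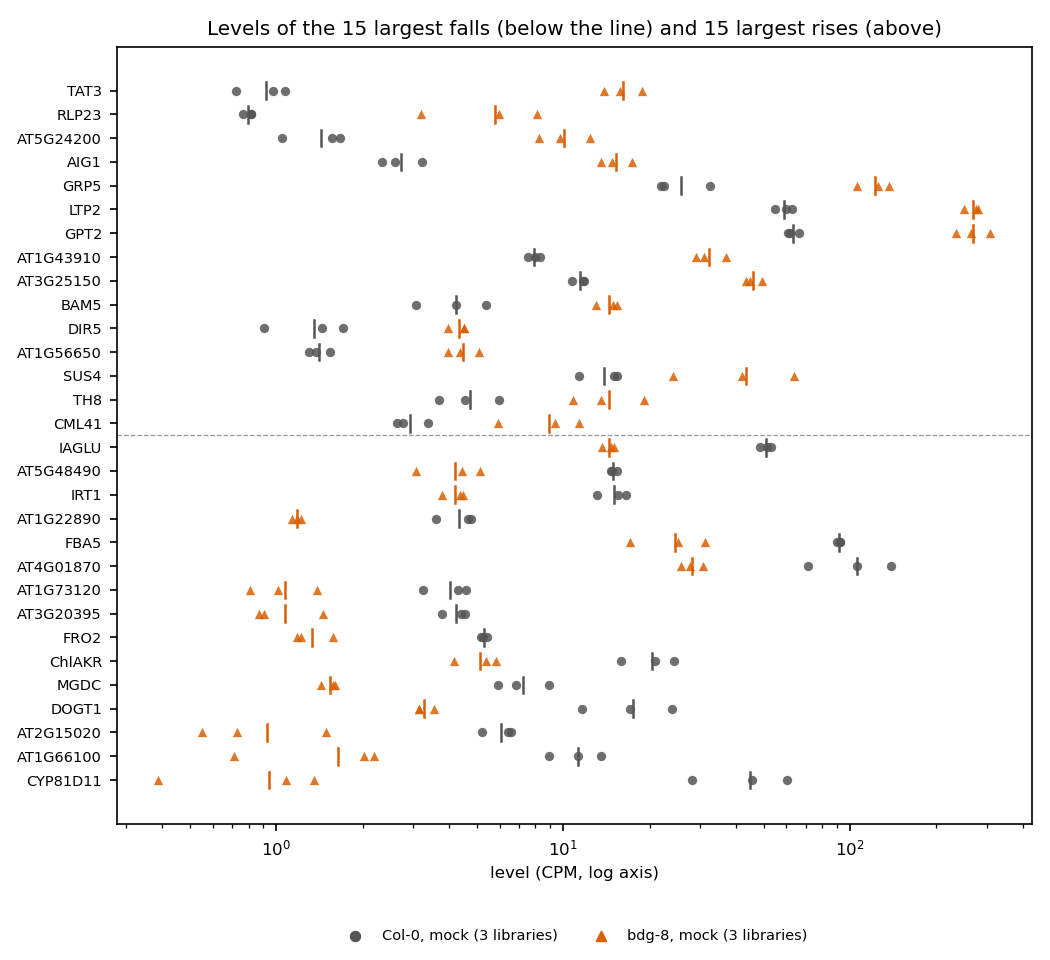
Level in CPM on a log axis of the 15 genes with the largest falls (below the dashed line) and the 15 with the largest rises (above it), with grey circles for the 3 Col-0 libraries, orange triangles for the 3 bdg-8 libraries and a bar at each group mean, all without ATP. No gene shows overlap between the groups, which was a condition of the choice; MGDC is MGD3 and AT1G56650 is MYB75, and CYP81D11 at the bottom shows the widest gap.

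The genes with the smallest p-values were often moderate changes at steady levels. ACO4 (AT1G05010), which makes ethylene in its last step, had 264, 267 and 265 CPM in Col-0 and 138, 125 and 131 CPM in bdg-8, a log2 difference of -1.01 ± 0.06 (edgeR adjusted p = 1.6e-11). The bZIP factor gene BZO2H3 (AT5G28770) fell by 1.21 ± 0.07 and RPT2 (AT2G30520), a protein of phototropism, by 0.80 ± 0.05 on the log2 scale. Among the rises, CYP96A4 (AT5G52320), a cytochrome P450 of a family that acts on fatty acids and alkanes, went from 4.47, 3.92 and 3.82 CPM to 10.8, 10.5 and 11.1 CPM. PAO2 (AT2G43020), a polyamine oxidase, went from 34.1, 34.2 and 34.3 CPM to 51, 48.2 and 47.4 CPM.

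AT3G25150 and AT1G36920 belonged to the named genes and set Col-0 apart from all mutants. AT3G25150, which encodes a nuclear transport factor 2 family protein with an RNA-binding motif, had 11.4 ± 0.605 CPM in Col-0, 45.8 ± 3.15 in bdg-8, 56.9 ± 0.583 in p2k1-3 and 59.0 ± 2.45 in the double mutant (SD, n = 3 each). AT1G36920, an uncharacterised gene, had 5.97 ± 0.914, 0.146 ± 0.0667, 0.0642 ± 0.0282 and 0.0236 ± 0.0206 CPM in the same order. For the first, the difference between double mutant and p2k1-3 was 0.05 ± 0.05 on the log2 scale (edgeR adjusted p = 0.47), and for the second -1.36 ± 0.93 (adjusted p = 0.30). Both single mutants were set against the same Col-0 libraries here.

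Genes of cutin and wax, the products that BDG1 helps to lay down, were lower more often than genes in general. Of 38 tested, 17 fell (44.7%, beside 18.5% of all genes), 3 rose and 18 were not called, with a median log2 difference of -0.17 beside 0.00 over all genes tested. The acyltransferase genes of cutin fell, with DCR (AT5G23940) at 43.5, 44.9 and 43.7 CPM in Col-0 and 30.3, 29.0 and 29.2 CPM in bdg-8. GPAT8 (AT4G00400) went from 47.6, 45.2 and 45.5 to 29.7, 34.4 and 33.5 CPM, and GPAT6 (AT2G38110) had a log2 difference of -0.48 ± 0.08. No library of these genes overlapped between genotypes, although the steps were under 2-fold. CYP86A8 (AT2G45970), which hydroxylates the ends of fatty acids for cutin, had a log2 difference of -0.31 ± 0.06, and the exporter ABCG13 (AT1G51460) -0.42 ± 0.13. Another CYP86A gene of the list, CYP86A2 (AT4G00360), was among the 3 that rose. It went from 64.89, 62.69 and 63.73 CPM to 68.62, 74.95 and 70.78 CPM, a call lost without replicate 3 (edgeR adjusted p = 0.078).

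Of the 6 tested regulators of the cuticle 2 fell, 4 were not called and none rose. MYB16 (AT5G15310), an activator of cuticle genes, went from 12.6, 12.9 and 12.9 CPM to 7.55, 9.21 and 7.86 CPM. DEWAX (AT5G61590), a repressor of wax synthesis, went from 42.1, 48.6 and 47.1 CPM to 24.9, 29.4 and 26.3 CPM. An activator and a repressor thus stood lower together, by 0.64 ± 0.11 and 0.78 ± 0.11 on the log2 scale. KCS6 (AT1G68530), the elongase of very long chains for wax, rose from 232, 229 and 232 CPM to 270, 311 and 298 CPM. The alkane-forming wax genes CER1 and CER3 were not called, with log2 differences of -0.24 ± 0.15 and -0.04 ± 0.04. Without replicate 3, 12 of the list fell and 1 rose. Beside p2k1-3, 10 fell and 8 rose in the double mutant, with a median of 0.06, or 5 and 3 without replicate 3. The direct test of the difference between backgrounds called 2 of the 38 genes, both higher in the p2k1-3 background, and none without replicate 3. Of 13 suberin genes, which build the root counterpart of cutin, 3 rose and 1 fell, the reductase gene FAR1 (AT5G22500) with -0.81 ± 0.09. That is 30.8% called beside 36.5% of all genes, and without replicate 3 no suberin gene rose and 1 fell.

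Detoxification genes included CYP81D11, the gene with the largest fall of all. Of 28 tested, 12 fell and 5 rose, with a median of -0.22; without replicate 3 it was 8 and 2. GSTU1 (AT2G29490), a glutathione transferase, went from 15, 25.7 and 20.8 CPM to 6.39, 8.37 and 6.72 CPM. OPR1 (AT1G76680), an oxophytodienoate reductase relative outside jasmonate synthesis, went from 76.0, 131 and 105 CPM to 33.9, 40.3 and 39.0 CPM. Col-0 replicate 2 was again highest and replicate 1 lowest, and neither overlapped with bdg-8. UGT74E2 (AT1G05680), a glucosyltransferase of the auxin indole-3-butyric acid, had a log2 difference of -3.60 ± 0.59 and GSTU24 (AT1G17170) one of -1.35 ± 0.18. The rises included GSTF6 (AT1G02930), a defence-responsive transferase, from 73.5, 76.7 and 75.6 CPM to 166, 143 and 150 CPM; its close copy GSTF7 makes the split of reads uncertain. Of the same list, 11 fell and 1 rose in the p2k1-3 background (7 and 0 without replicate 3), and CYP81D11 had -7.03 ± 0.40 there.

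Genes of iron deficiency had the lowest median of the pathway lists with more than 1 tested gene, -0.56 over 17 tested, of which 12 fell and 2 rose. FRO2 (AT1G01580), the root iron reductase, went from 5.44, 5.25 and 5.17 CPM to 1.58, 1.18 and 1.22 CPM. IRT1 (AT4G19690), the iron transporter, went from 16.5, 13.1 and 15.5 CPM to 3.78, 4.48 and 4.35 CPM. Both steps were over 3-fold, with log2 differences of -1.99 ± 0.27 and -1.85 ± 0.29. The 2 members that rose were ferritin genes, whose products store iron. FER3 (AT3G56090) went from 85.8, 80.7 and 77.4 CPM to 148, 142 and 138 CPM, and FER4 (AT2G40300) rose by 0.68 ± 0.11 on the log2 scale. FER1, another ferritin gene of the list, was not called higher. FIT, the master regulator of uptake, was not called at -0.24 ± 0.11. BHLH39 (AT3G56980), a partner of FIT, had 0.419, 2.37 and 1.82 CPM in Col-0 and 0.161, 0.139 and 0.0696 CPM in bdg-8, which is a few counts per library, and its call was lost without replicate 3 (edgeR adjusted p = 0.11). Without replicate 3, 6 of the list fell and 2 rose; in the p2k1-3 background 6 fell and 3 rose, or 2 and 1 without that replicate.

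Phosphate-starvation genes fell in 10 of 21 cases and rose in 3, with a median of -0.26. SPX1 (AT5G20150), a sensor of phosphate status, went from 43.0, 34.4 and 36.7 CPM to 15.1, 25.1 and 21.2 CPM. GDPD1 (AT3G02040), a phosphodiesterase that frees phosphate from lipids, had a log2 difference of -1.05 ± 0.18 and MGD2 (AT5G20410) one of -1.01 ± 0.17. PHT1;1 (AT5G43350), a phosphate transporter, rose by 0.36 ± 0.09, a call lost without replicate 3 (edgeR adjusted p = 0.10), and its reads may be shared with the close copy PHT1;2. Only 4 of the list fell and none rose without replicate 3. In sulfur deficiency and assimilation, 10 of 16 rose and 2 fell, with a median of 0.36, and 5 rose and 1 fell without replicate 3. LSU2 (AT5G24660), a marker of low sulfur, had a log2 difference of 0.48 ± 0.08 and APK2 (AT4G39940), which activates sulfate for transfer, one of 0.43 ± 0.06. Nitrate genes rose in 7 and fell in 3 of 16 cases (3 and 2 without replicate 3), among them the nitrate transporter NRT1.1 (AT1G12110) with 0.53 ± 0.08.

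Anthocyanin synthesis had the highest median of the pathway lists, 0.88 over 15 tested, of which 10 rose and 1 fell. MYB75 (AT1G56650), an activator of the late pathway, went from 1.54, 1.29 and 1.38 CPM to 5.07, 3.96 and 4.35 CPM. DFR (AT5G42800), the first enzyme committed to anthocyanins, went from 20.9, 12.7 and 18.6 CPM to 55.0, 45.8 and 51.3 CPM. LDOX (AT4G22880), the next enzyme, went from 17.5, 11.3 and 14.9 CPM to 45.2, 33.9 and 38.1 CPM. The bdg-8 libraries lay clearly above Col-0 in all 3 genes, with log2 differences of 1.67 ± 0.24, 1.54 ± 0.17 and 1.42 ± 0.16. The early enzyme CHS (AT5G13930) rose less, by 0.37 ± 0.09. MYBL2 (AT1G71030), a repressor of the pathway, was the member that fell, from 30.8, 30.6 and 31.9 CPM to 10.9, 15.6 and 14.3 CPM. Without replicate 3, 8 rose and 1 fell. In the p2k1-3 background 10 rose and 1 fell, with or without that replicate, with DFR at 2.4 ± 0.18.

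Aliphatic glucosinolates, sulfur-rich defence compounds, showed a like pattern with smaller steps. Of 17 tested, 11 rose and 2 fell, with a median of 0.35, and 9 rose and 2 fell without replicate 3. MAM3 (AT5G23020), which lengthens the methionine chain, went from 205, 214 and 212 CPM to 324, 344 and 330 CPM. CYP79F1 (AT1G16410), which converts the lengthened amino acids, went from 286, 277 and 284 CPM to 385, 437 and 416 CPM. The members that fell were the myrosinases TGG1 (AT5G26000) and TGG2 (AT5G25980), which break the compounds down, with -0.45 ± 0.08 and -0.68 ± 0.12. In the p2k1-3 background 11 rose and none fell, 9 without replicate 3; TGG2 there had 0.24 ± 0.12 and was not called.

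**Figure D3:**
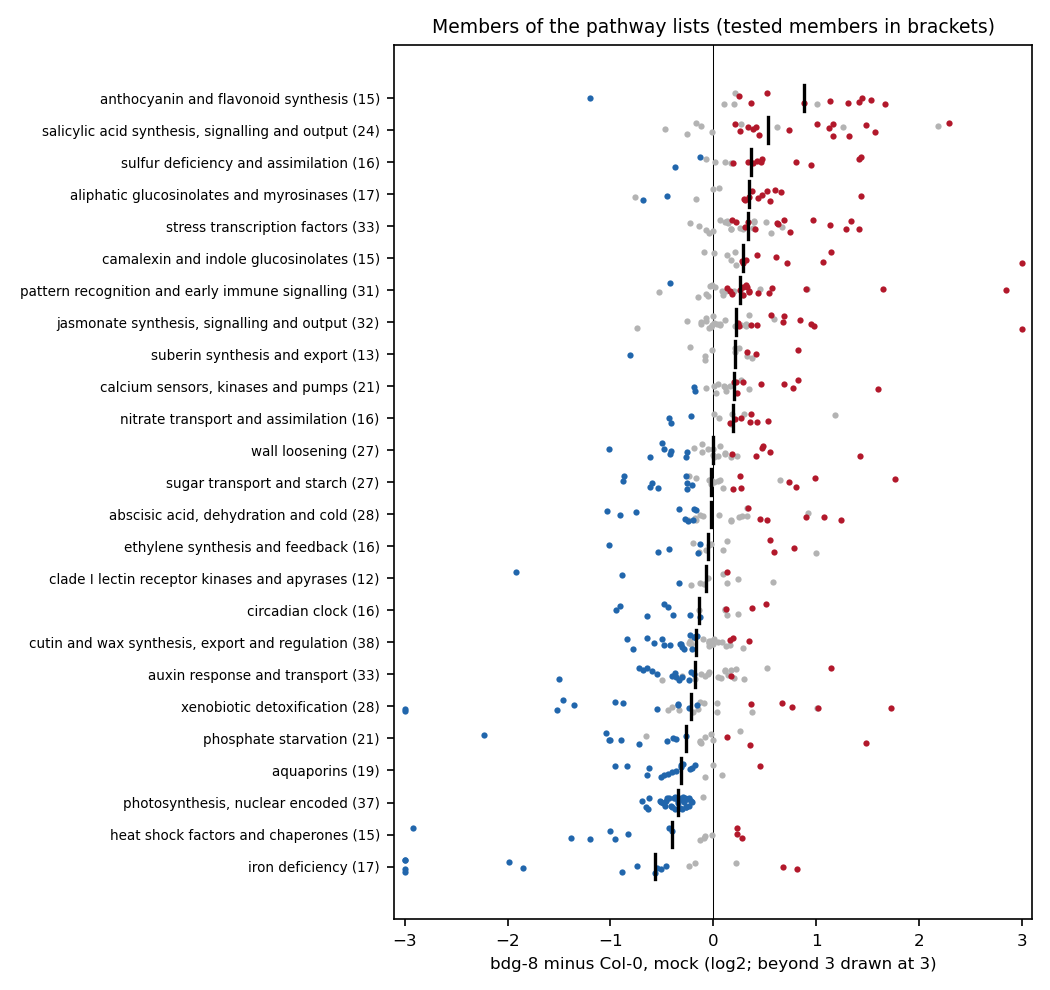
Log2 difference between bdg-8 and Col-0 without ATP (horizontal axis) for the tested members of each pathway list with 5 or more of them (1 line per list, ordered by median), with a black bar at the median, red for members called higher, blue for called lower and grey for not called. Of these lists anthocyanin synthesis has the highest median, 0.88, and iron deficiency the lowest, -0.56; values beyond 3 are drawn at 3.

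Many salicylic acid and immune genes were higher in bdg-8 than in Col-0. Of 24 salicylic acid genes tested, 15 rose and none fell, with a median of 0.53; 10 rose and none fell without replicate 3. Among pattern recognition genes 16 of 31 rose and 1 fell, among camalexin and indole glucosinolate genes 9 of 15 rose and none fell, and among stress transcription factors 14 of 33 rose and none fell. Without replicate 3 these rises numbered 7, 4 and 7. SARD1 (AT1G73805), an activator of salicylic acid synthesis, went from 1.81, 2.11 and 2.1 CPM to 6.91, 4.38 and 5.60 CPM, a log2 difference of 1.49 ± 0.17 (edgeR adjusted p = 5.3e-07). PBS3 (AT5G13320), an enzyme of that synthesis, went from 1.08, 1.37 and 1.35 CPM to 5.39, 3.16 and 2.71 CPM. The first bdg-8 library was the highest for both, and no bdg-8 library overlapped with Col-0. The outputs PR1 and PR2 were not called, with log2 differences of -0.47 and 2.19 and edgeR adjusted p = 0.86 and 0.14.

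SOBIR1 (AT2G31880), a co-receptor of RLP23, went from 14.7, 13.4 and 14.4 CPM to 23.0, 18.3 and 20.3 CPM. CYP81F2 (AT5G57220), which modifies indole glucosinolates, went from 4.29, 4.81 and 4.33 CPM to 6.71, 6.67 and 7.10 CPM. PAD3 (AT3G26830), the last enzyme of camalexin synthesis, went from 4.64, 5.73 and 6.05 CPM to 12.4, 12.1 and 12.0 CPM. All 3 genes were higher in every bdg-8 library. FLS2 (AT5G46330), the flagellin receptor, was the pattern recognition gene that fell, by 0.42 ± 0.05. CYP71A13 (AT2G30770), an enzyme of camalexin synthesis, had no count in any Col-0 library and 8, 26 and 23 counts in bdg-8, at least 18.8-fold higher against a floor of 3 counts over the Col-0 group. It has a near-identical copy, CYP71A12, so the assignment of its reads is uncertain.

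The same immune lists looked different in the p2k1-3 background. There, bdg-8 in the double mutant against p2k1-3 gave 1 rise and 5 falls among salicylic acid genes, 4 rises and 9 falls among pattern recognition genes, 2 rises and 5 falls for camalexin and indole glucosinolates, and 3 rises and 11 falls among stress transcription factors. Without replicate 3 these were 0 and 2, 0 and 2, 1 and 3, and 0 and 3. This comparison called 6555 genes (31.2%), 3180 higher (15.1%) and 3375 lower (16.1%), or 2161 (10.3%) without replicate 3. SARD1 had 2.01 ± 0.168 CPM in Col-0, 5.63 ± 1.26 in bdg-8, 5.64 ± 0.312 in p2k1-3 and 4.49 ± 0.349 in the double mutant (SD, n = 3 each). CYP81F2 had 4.48 ± 0.289, 6.83 ± 0.236, 12.4 ± 1.1 and 6.62 ± 0.0624 CPM in that order. WRKY30 (AT5G24110), a stress-induced transcription factor, had 0.342 ± 0.00832, 0.844 ± 0.221, 4.21 ± 0.552 and 0.841 ± 0.186 CPM.

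The single mutant p2k1-3 thus stood at or above bdg-8 for SARD1, CYP81F2 and WRKY30, and the double mutant near bdg-8. Some other called members of the immune lists did not follow this. PAD3 had 12.4, 12.1 and 12.0 CPM in bdg-8 and 6.67, 11.8 and 9.38 CPM in p2k1-3. WRKY46 (AT2G46400) had 5.45, 3.89 and 3.97 CPM in bdg-8 and 3.17, 3.43 and 3.28 CPM in p2k1-3. In p2k1-3 against Col-0, which called 1111 genes (5.29%; 3.41% higher and 1.89% lower) and used the same Col-0 libraries, 8 salicylic acid genes, 14 pattern recognition genes and 19 stress transcription factors were higher and none of these 3 lists had a fall; among camalexin and indole glucosinolate genes 7 were higher and 1 lower. Without replicate 3 that comparison called 85 genes (0.405%), with 1, 1, 6 and 2 higher in the 4 lists and none lower. The difference of the bdg-8 effect between backgrounds was tested directly and was called for 416 genes (1.98%), 120 higher (0.572%) and 296 lower (1.41%) in the p2k1-3 background. These included 8 salicylic acid, 8 pattern recognition, 5 camalexin and indole glucosinolate and 6 stress transcription factor genes, all lower. The differences were -1.81 ± 0.22 for SARD1, -1.52 ± 0.16 for CYP81F2 and -3.60 ± 0.38 for WRKY30 on the log2 scale. Without replicate 3 this test called 2 genes (0.00952%), AT3G25150 at -2.01 ± 0.10 (edgeR adjusted p = 1.1e-06) and WRKY30 at -3.62 ± 0.46 (adjusted p = 0.031), so SARD1, CYP81F2 and the other immune genes were not called in it without that replicate. Without the first bdg-8 library it called 250 (1.18%), and without replicate 2 of any group 409. No fit left out a single p2k1-3 library. Some immune genes were uneven within p2k1-3, with replicate 2 highest. In its replicates 1, 2 and 3, FRK1 had 21.7, 74.8 and 48.0 CPM and WRKY53 had 6.63, 12.7 and 9.62 CPM. SARD1 was even there, at 5.84, 5.79 and 5.28 CPM.

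**Figure D4:**
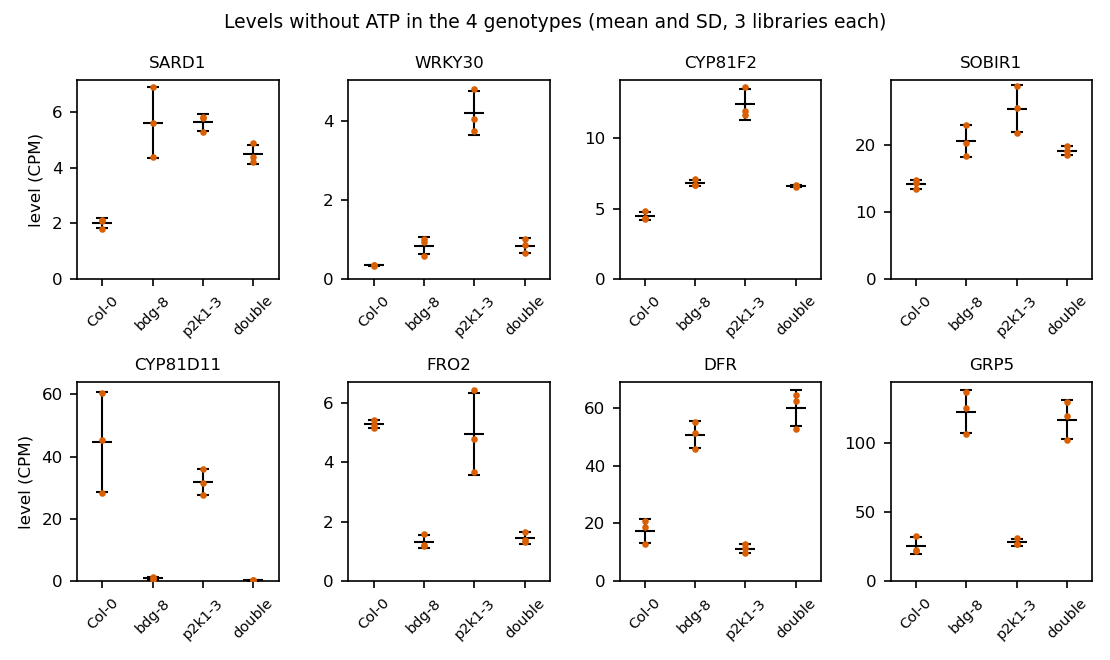
Level in CPM of 8 genes without ATP in Col-0, bdg-8, p2k1-3 and the double mutant, with points for the 3 libraries and bars for mean and SD. In the upper row (SARD1, WRKY30, CYP81F2, SOBIR1) p2k1-3 is at or above bdg-8 and the double mutant is not above p2k1-3. The upper row does not stand for all immune genes, since PAD3 and WRKY46 were higher in bdg-8 than in p2k1-3. In the lower row (CYP81D11, FRO2, DFR, GRP5) both bdg-8 genotypes differ from both others in the same direction.

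Jasmonate genes rose in 11 of 32 cases and fell in none, with a median of 0.23. That is 34.4% called, beside 36.5% of all genes called and 18.0% called higher. Without replicate 3, 5 rose and none fell. The rises were mostly enzymes of synthesis. LOX2 (AT3G45140), a plastid lipoxygenase at the entry of the pathway, went from 180, 198 and 195 CPM to 339, 404 and 386 CPM. AOC3 (AT3G25780), an allene oxide cyclase, went from 10.6, 11.8 and 11.3 CPM to 23.0, 18.6 and 19.0 CPM. OPR3 (AT2G06050), the reductase that follows, had a log2 difference of 0.56 ± 0.07 and LOX3 (AT1G17420) one of 0.68 ± 0.13. The rises also included the output gene TAT3, described above, and JAZ5 (AT1G17380), from 1.36, 1.55 and 1.66 CPM to 2.61, 2.36 and 2.44 CPM. The output markers VSP2 and PDF1.2a were not called, at -0.26 ± 0.23 and -0.74 ± 0.49, and overlapped between genotypes. In the p2k1-3 background 11 rose and 1 fell, 5 and 0 without replicate 3. Ethylene genes were split, with 3 higher and 5 lower of 16 (1 and 2 without replicate 3), and the late oxidases went in opposite directions, ACO1 (AT2G19590) by 0.78 ± 0.12 and ACO4 by -1.01 ± 0.06. Abscisic acid, dehydration and cold genes were split too, 6 higher and 9 lower of 28 (3 and 4 without replicate 3). Among them ABA1 (AT5G67030), an enzyme of abscisic acid synthesis, had -0.76 ± 0.09 and RD22 (AT5G25610), a dehydration-responsive gene, 0.90 ± 0.07. Calcium genes rose in 9 and fell in 2 of 21 cases (6 and 0 without replicate 3).

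Nuclear genes of photosynthesis were lower in bdg-8, by less than 2-fold each. Of 37 tested, 36 fell and none rose, with a median of -0.34 and a lowest value of -0.69; their summed level was 102096 to 111175 CPM in Col-0 and 68620 to 90683 CPM in bdg-8. The count depended on the libraries used, since 21 fell without the first bdg-8 library and 9 without replicate 3 of all 8 groups. The p2k1-3 background had 20 falls and no rise, and no call of either kind without replicate 3. Outside that list, CA1 (AT3G01500), a carbonic anhydrase of green cells, had 359, 671 and 551 CPM in bdg-8 and 1173 to 1190 CPM in Col-0, and GLK2 (AT5G44190), a regulator of chloroplast development, had 139, 143 and 142 CPM in Col-0 and 66.2, 88.6 and 79.0 CPM in bdg-8. The first bdg-8 library was the lowest for both.

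Cell type markers moved beside these groups. Of 9 green tissue markers 8 fell and none rose, with a summed level of 31862 to 34449 CPM in Col-0 and 20633 to 27449 CPM in bdg-8. Guard cell markers fell in 6 of 10 cases, 107 to 114 CPM in sum in Col-0 and 72.4 to 91.1 CPM in bdg-8, and mitotic markers in 8 of 9, 248 to 282 and 211 to 224 CPM. Epidermal markers, the cells in which BDG1 is active, fell in 5 of 8 cases and rose in 1, with summed ranges of 1254 to 1337 and 1255 to 1407 CPM that overlapped. PDF1 (AT2G42840) had -0.55 ± 0.07 and ATML1 (AT4G21750) -0.49 on the log2 scale, while LTP1 (AT2G38540) had 0.54 ± 0.07. Vascular and secondary wall markers fell in 6 of 10 cases and none rose, with a median of -0.31 and summed levels of 165 to 176 CPM in Col-0 and 131 to 145 CPM in bdg-8. Of 4 root cap markers 2 rose, at 4.36 to 5.47 and 5.91 to 7.49 CPM in sum. The root cortex marker planned for the same list was not matched to a gene. Trichome markers had 1 rise and 1 fall of 7, phloem markers 2 rises of 6 and senescence markers 3 falls of 9. Their called shares were 28.6, 33.3 and 33.3%, beside 36.5% of all genes. Without replicate 3, falls were called for 6 green tissue, 4 guard cell, 3 epidermal, 2 vascular and 1 mitotic marker, and no root cap marker rose. Root hair markers rose in 3 of 10 cases, a called share of 30%, and none of these calls held without replicate 3. Root endodermis markers were called in 1 of 10 cases, with summed levels of 88.7 to 101 CPM in Col-0 and 89.1 to 92.7 CPM in bdg-8. Of the seed storage genes 1 passed the filter on low values, at under 0.42 CPM in sum. No defining marker of green tissue, epidermis, guard cells, root hairs or endodermis was at 0 in all 6 libraries. Shoot and root markers were both present. The part of tissue make-up in the differences of the pathway lists was not tested.

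Most water channel genes were lower. Of 19 aquaporin genes tested, 15 fell and 1 rose, with a median of -0.32; 13 fell and 1 rose without replicate 3. TIP2;1 (AT3G16240), a channel of the vacuole membrane, went from 353, 328 and 326 CPM to 163, 181 and 176 CPM. PIP1;2 (AT2G45960), a channel of the plasma membrane, went from 514, 525 and 499 CPM to 295, 356 and 336 CPM. The member that rose was PIP2;5 (AT3G54820), from 8.20, 8.25 and 6.99 CPM to 10.5, 10.8 and 10.7 CPM. Aquaporins fell in 10 and rose in 1 case in the p2k1-3 background, 5 and 0 without replicate 3. The same list had 11 falls in p2k1-3 against Col-0, a comparison that shares the Col-0 libraries, and none without replicate 3.

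Auxin genes fell in 14 of 33 cases and rose in 2, with a median of -0.17; without replicate 3, 10 fell and 1 rose. PIN4 (AT2G01420), an auxin exporter, went from 73.0, 70.3 and 69.8 CPM to 41.3, 44.9 and 42.9 CPM. IAA29 (AT4G32280), a repressor induced by auxin and shade, had -1.50 ± 0.31, whereas the synthesis gene YUC9 (AT1G04180) rose by 1.14 ± 0.22. Wall-loosening genes were split, with 6 higher and 8 lower of 27 (3 and 6 without replicate 3). EXPA8 (AT2G40610), an expansin, went from 25.5, 23.5 and 26.1 CPM to 12.2, 12.1 and 13.0 CPM, and XTH19 (AT4G30290), a xyloglucan-remodelling enzyme, from 5.65, 7.77 and 7.4 CPM to 19.9, 17.8 and 18.3 CPM. Genes for wall-loosening proteins thus moved in both directions.

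Clock genes fell in 8 and rose in 3 of 16 cases (5 and 1 without replicate 3). The morning genes CCA1 (AT2G46830) and LNK2 (AT3G54500) had -0.91 ± 0.12 and -0.95 ± 0.10. Heat shock genes fell in 8 and rose in 3 of 15 cases (6 and 1 without replicate 3), with the chaperones HSP70 (AT3G12580) from 68.6, 54.4 and 64.1 CPM to 24.1, 25 and 22.4 CPM and HSP90.1 (AT5G52640) at -1.20 ± 0.17. Sugar and starch genes were split, 7 higher and 9 lower of 27 (4 and 6 without replicate 3). The starch synthesis genes APL3 (AT4G39210) and GBSS1 (AT1G32900) had 0.73 ± 0.14 and 0.81 ± 0.15, and the sugar transporter STP1 (AT1G11260) and the trehalose phosphate synthase TPS8 (AT1G70290) had -0.62 ± 0.07 and -0.87 ± 0.07.

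The bdg-8 effect was also measured in the p2k1-3 background and with ATP, in libraries that the comparison with Col-0 without ATP does not use. Of the 3778 genes higher in bdg-8 without ATP, 2162 (57.2%) were also higher in the double mutant against p2k1-3 without ATP, which is 68.0% of the genes higher there, and 83 were lower. Of the 3884 lower genes, 2361 (60.8%) were also lower, 70.0% of those lower there, and 13 were higher. With ATP, bdg-8 against Col-0 called 9626 genes (45.8%), 5154 higher (24.5%) and 4472 lower (21.3%), and 2699 of the higher genes (71.4%, or 52.4% of those higher with ATP) and 2874 of the lower genes (74.0%, or 64.3%) were called the same way. Across all 20995 genes, which are not independent replicates, Pearson's r of the log2 differences was 0.608 with the p2k1-3 background and 0.687 with the comparison under ATP. Called the same way in all 3 comparisons were 1694 higher and 1945 lower genes. Without replicate 3 these were 1047 genes together, beside 3639. The differences were smaller in the p2k1-3 background without ATP, where the 3778 higher genes had a median of 0.20 beside 0.29. The 3884 lower genes had -0.23 there beside -0.33. In the p2k1-3 background with ATP the medians of the same genes were 0.33 and -0.37. The genes were chosen by their call against Col-0 without ATP. Without replicate 3, 552 of 1374 higher (40.2%) and 802 of 1796 lower genes (44.7%) were called the same way in the p2k1-3 background without ATP. In bdg-8 against Col-0 with ATP these were 851 (61.9%) and 1307 (72.8%).

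**Figure D5:**
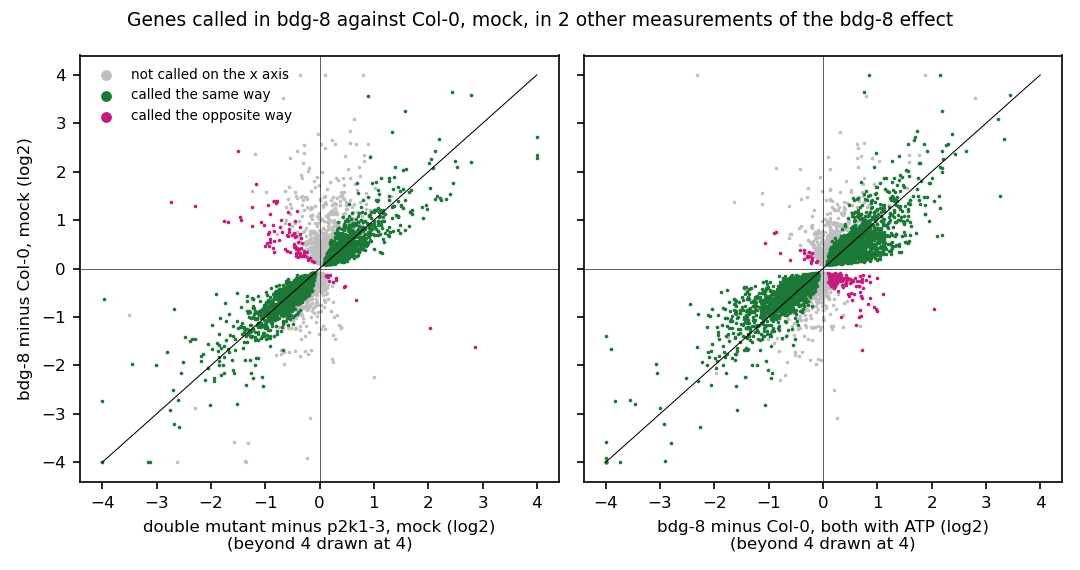
Log2 difference between bdg-8 and Col-0 without ATP (vertical axes) for the genes called there, against the same effect in the p2k1-3 background (left) and with ATP (right), with green for genes called the same way, pink for the opposite way and grey for not called on the horizontal axis. Most points share their sign on both axes. The values on the horizontal axis are often smaller in the p2k1-3 background without ATP, with medians of 0.20 and -0.23 beside 0.29 and -0.33. Values beyond 4 are drawn at 4.

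The bdg-8 effect with ATP minus that without differed for 1660 genes (7.91%), 1209 higher (5.76%) and 451 lower (2.15%) with ATP, and for 458 genes without replicate 3. MYB75 had 1.67 ± 0.24 without ATP and -0.28 with it, TAT3 4.14 ± 0.44 and 0.84, and AT5G24200 2.82 ± 0.29 and 0.31. With ATP, TAT3 was still called, and MYB75 and AT5G24200 were not.

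Genes that ATP changed in p2k1-3, a comparison without any of the 6 libraries, were set beside the bdg-8 effect. That response called 4287 genes (20.4%). Of the 2497 (11.9% of all genes) that ATP raised there, 384 (15.4%) were higher and 846 (33.9%) lower in bdg-8 without ATP. Of the 1790 (8.53%) that ATP lowered, 707 (39.5%) were higher and 147 (8.21%) lower. Among the 616 genes changed at least 2-fold (2.93%) the picture was less one-sided, with 98 higher and 87 lower of 449 raised genes, and 43 higher and 13 lower of 167 lowered genes. Without replicate 3 of any group, ATP raised 1380 genes there, of which 105 were higher and 215 lower in bdg-8, and lowered 503, of which 85 were higher and 20 lower; the calls fell from 2084 to 425.

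Genes near BDG1 did not stand out. Of the 100 tested genes nearest to it in identifier order, 50 on each side, 38 (38%) were called, beside 36.5% of all genes, 17 higher and 21 lower. Called shares of the 5 nuclear chromosomes ran from 36.1 to 37.7%.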

How the data were processed

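Polyadenylated RNA of whole seedlings was sequenced in 24 libraries, 3 per group, of which 6 enter the comparison. The authors deposited whole-number counts of reads per gene for each library. HTSeq 0.13.5, STAR 2.7.4a, cutadapt 1.13 and MultiQC 1.9 are named, without their order, in what the submitters' processing notes list. The genome build is not given in the sources used here, so no coordinates or sequences are printed, and the planned search of promoters for motifs was not run. The 5 summary entries, 7.603 to 11.22% of all counts in the 6 libraries, were left out. Counts in genes of all 24 libraries ran from 25856588 to 35239775. Counting error is the least spread they allow, and differences between libraries of a group add to it.

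From these counts, edgeR 4.0.16 in R 4.3.3 was run on all 24 libraries with 1 coefficient per group, TMM factors, filterByExpr and the quasi-likelihood test (16 residual degrees of freedom), with Benjamini-Hochberg adjustment over 20995 of 33245 genes and calls at an adjusted p under 0.05. SE is the log2 difference divided by the root of F. CPM values use TMM-scaled library sizes. The fit was tested on simulated data with 200 changed genes. Symbols came from the RefSeq gene table of TAIR10.1, which held 33056 of the loci.

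The members and lists were chosen with earlier results of these data known. Named genes are BDG1, P2K1, the 15 largest rises and falls whose log2 CPM averaged 1 or more over the 6 libraries and whose groups did not overlap, the 10 smallest p each way, up to 5 called members per list and direction and uncalled markers, and the 4 largest each way in tests of differences between effects. Further genes named from a list, such as GPAT6, CYP86A8, ABCG13, APK2, CHS, OPR3 and LOX3, were chosen after their values were seen. Alternatives were other size factors, filters, DESeq2 1.42.0, the 6 libraries alone, a replicate block, a minimum fold and leaving out replicates.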

Additional observations from a re-analysis of the deposited data

Results flagged for a closer look

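The bdg-8 effect without ATP was set against the same effect in the p2k1-3 background, by a test of the difference itself in edgeR, and 416 genes differed. Among genes above the level filter, the differences furthest below 0 were those of AT3G05955, an RNA gene without a protein product (-3.34), TAT3 (-3.33), the kinase gene ARCK1 (-2.45) and AIG1 (-2.40) on the log2 scale. Those furthest above 0 were AT2G01422, another such RNA gene (4.49), the glycine-rich protein gene AT1G55990 (1.43), the myrosinase-binding protein gene MBP2 (1.31) and the glycine-rich protein gene AT4G33610 (0.97). None of these 8 genes was called without replicate 3, when the test called AT3G25150 and WRKY30.

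The bdg-8 effect with ATP differed from that without in 1660 genes. The furthest below 0 were TAT3 (-3.30), AT5G24200 (-2.51), PKS4, a phytochrome kinase substrate (-2.25), and AT1G56650, which is MYB75 (-1.95). The furthest above 0 were BDG1 (2.88), the flagellin-induced kinase gene FRK1 (1.85), AT1G22890 (1.84) and AT2G17740 (1.81). Groups of 3 libraries were not tested for single far libraries.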

How the results depend on the processing

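No named gene's called difference changed sign under the alternatives run, and BDG1 stayed between -0.96 and -0.75 when libraries were left out. Leaving out replicates gave 3170 to 7491 genes called (7662 with all), 1374 to 3682 higher, 1796 to 3886 lower, 178 to 332 at least 2-fold higher and 180 to 300 at least 2-fold lower. It gave 2161 to 6684 genes in the p2k1-3 background, 5636 to 9739 with ATP, 2 to 502 for the difference between backgrounds, 458 to 2168 for that between treatments and 1047 to 3643 called alike in all 3 comparisons. List members called were 202 to 395 (380 with all), named genes 164 to 239 (254) and the bdg-8 calls among genes that ATP changed in p2k1-3 were 425 to 2357 (2084). The lowest counts came without replicate 3. Without Col-0 replicate 3, 275 genes differed between backgrounds, and 250 without bdg-8 replicate 1. A test against a fold of 1.2 called 1813 genes, 738 higher and 1075 lower. A minimum of 10 CPM in 3 libraries left 81 genes at least 2-fold higher and 81 lower. Added after the data were seen, the 6 libraries without replicate 3 gave 2286 genes, 1012 higher and 1274 lower, with 155 at least 2-fold higher, 174 list members and 157 named genes; the cause was not tested. DESeq2 called 6973 genes and kept 90.3% of the calls. Upper-quartile factors moved the median of all genes by 0.03 and gave 4508 higher and 3363 lower, 57.3% higher, so the balance of higher and lower calls turned; without replicate 2 it was 3682 and 3628. With a replicate block 8083 genes were called. Taken about their group means, same-numbered libraries of the 2 groups correlated at 0.02, -0.000644 and 0.0371. With 3 libraries per group these values cannot decide whether the numbers mark shared batches. Replicate 1 had the lowest share of reads aligned to more than 1 place in every group. Without ATP it was 5.269, 5.758 and 6.056% in Col-0 replicates 1, 2 and 3, and 3.13, 5.978 and 6.867% in bdg-8. The motif search was not run.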
